A study of Nicotiana tabacum with 6 samples.

Results

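Transcripts of 7 tobacco transcription factor genes of the AP2/ERF, WRKY and zinc-finger families were followed through 6 leaf libraries. They were 4 AP2/ERF genes, DREB3 (ncbi_107807923), DREB4 (ncbi_107776941), NtERF4 (ncbi_107790518) and WRAF1 (ncbi_107773005), 2 WRKY genes, WIZZ (ncbi_107798622) and NtWRKY-6 (ncbi_107769908), and the zinc-finger gene ZFT1 (ncbi_107761653). The 7 genes, of 68476 loci in the deposited table, were chosen by their levels in these same libraries, which differed widely among the WT libraries, so those levels are given as a description without a test. Families were read from gene names. Levels are given in FPKM, which is fragments per unit of transcript length and of sequenced library. All 7 averaged 0.5 FPKM or more across the 6 libraries and were among the 40725 loci tested. WRAF1 and DREB4 reached that mean only through a single wild-type library. The samples were mature leaves of Nicotiana tabacum, with 3 wild-type libraries (WT) and 3 from plants overexpressing NtispH, a gene of plastid isoprenoid synthesis (OE-NtispH), all from poly(A) RNA. The sources used here do not give the wild-type cultivar, the promoter of the transgene, the number of transgenic lines, the age of the plants or whether replicates came from separate plants.

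AP2/ERF proteins bind short promoter elements: the DREB branch the dehydration-responsive element of cold and drought genes, and the ERF branch the GCC box of ethylene- and pathogen-inducible defence genes. WRKY proteins bind the W-box of wound- and pathogen-inducible genes, and plant C2H2 zinc-finger proteins of the ZFT1 type respond to wounding, elicitors and abiotic stress. In leaves, transcripts of many such regulators are scarce at rest and accumulate within minutes to hours of wounding, elicitation, cold or drought, and then decline.

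The locus named ISPH, for the overexpressed gene, did not follow the labels. Whether this locus holds the fragments of the transgene was not tested. ISPH (ncbi_107760258) was listed at 108.2, 3038 and 558.6 FPKM in the libraries labelled WT replicates 1, 2 and 3, and at 2761, 684.6 and 853.7 FPKM in those labelled OE-NtispH replicates 1, 2 and 3. Its highest value stood in WT replicate 2 and its lowest in WT replicate 1, whereas the 7 regulators had their highest values in WT replicate 3. Directions below are therefore between libraries as labelled. FPKM summed to 747832 to 770304 in the different libraries, and without read counts no counting error can be attached to the low values. Tobacco is an allotetraploid, and fragments of near-identical gene copies may be split between loci, so the level of any single copy is uncertain to that extent.

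Among the AP2/ERF genes, DREB3 and DREB4, named for the DREB branch, were at or near 0 in most libraries and far higher in WT replicate 3. DREB3 was listed at 0, 2.53 and 49.5 FPKM in WT replicates 1, 2 and 3, and at 0.364, 0.301 and 0.058 FPKM in OE-NtispH replicates 1, 2 and 3. Its level in WT replicate 3 was 19.5 times that in WT replicate 2 and 136 times that in OE-NtispH replicate 1, the highest of its group. DREB4 was listed at 0, 0.845 and 33.2 FPKM in WT replicates 1, 2 and 3, and at 0.582, 0 and 0 FPKM in OE-NtispH replicates 1, 2 and 3. WT replicate 3 alone held 95.9% of the DREB4 signal summed over the 6 libraries, against 93.8% for DREB3. For both genes the OE-NtispH values lay within the range of the WT values, close to its lower end.

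NtERF4, an ERF-branch factor also listed under the names ERF4 and EREBP-4, had the widest range over the WT libraries among the 4 of the 7 genes that were above 0 in every library. It was at 0.713, 26.7 and 88.3 FPKM in WT replicates 1, 2 and 3, and at 13.7, 3.66 and 1.39 FPKM in OE-NtispH replicates 1, 2 and 3. The level in WT replicate 3 was 124 times that in WT replicate 1, and WT replicate 2 already stood 37.5 times above WT replicate 1. NtERF4 also differed within the OE-NtispH group, where the highest library was 9.85 times the lowest. WRAF1, named as a wound-responsive AP2/ERF factor, was listed at 10.9 FPKM in WT replicate 3 and at 0 in the other 5 libraries. No fold is given for it, since every library it could be set against was listed at 0.

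Both WRKY genes were above 0 in every library, as NtERF4 was, while DREB3, DREB4 and WRAF1 were listed at 0 in at least 1. WIZZ, a wound-induced WRKY protein with a leucine zipper, was at 4.28, 9.29 and 57.1 FPKM in WT replicates 1, 2 and 3. In OE-NtispH replicates 1, 2 and 3 it was at 9.25, 7.38 and 8.78 FPKM, a range of 1.25 times from lowest to highest. Outside WT replicate 3, WIZZ thus stayed between 4.28 and 9.29 FPKM, and WT replicate 3 was 6.15 times the next highest library. NtWRKY-6, another WRKY factor, was at 1.31, 10.2 and 54.5 FPKM in WT replicates 1, 2 and 3, and at 2.89, 2.09 and 2.29 FPKM in OE-NtispH replicates 1, 2 and 3. WT replicate 2 had 3.54 times the NtWRKY-6 level of the highest OE-NtispH library, whereas for WIZZ these values were nearly equal, at a ratio of 1.00.

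ZFT1, a C2H2 zinc-finger protein studied in the hypersensitive response of tobacco to tobacco mosaic virus, was the most abundant of the 7 in each of the 6 libraries. Its values were 5.51, 44.6 and 177.8 FPKM in WT replicates 1, 2 and 3, and 61.4, 25.3 and 14.8 FPKM in OE-NtispH replicates 1, 2 and 3. WT replicate 3 was 32.3 times WT replicate 1 but 2.89 times OE-NtispH replicate 1, the smallest step to the next highest library among the 7 genes. ZFT1 was the only one of the 7 with an OE-NtispH library above WT replicate 2. Like NtERF4, ZFT1 varied among the OE-NtispH libraries, by 4.16 times.

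**Figure D1:**
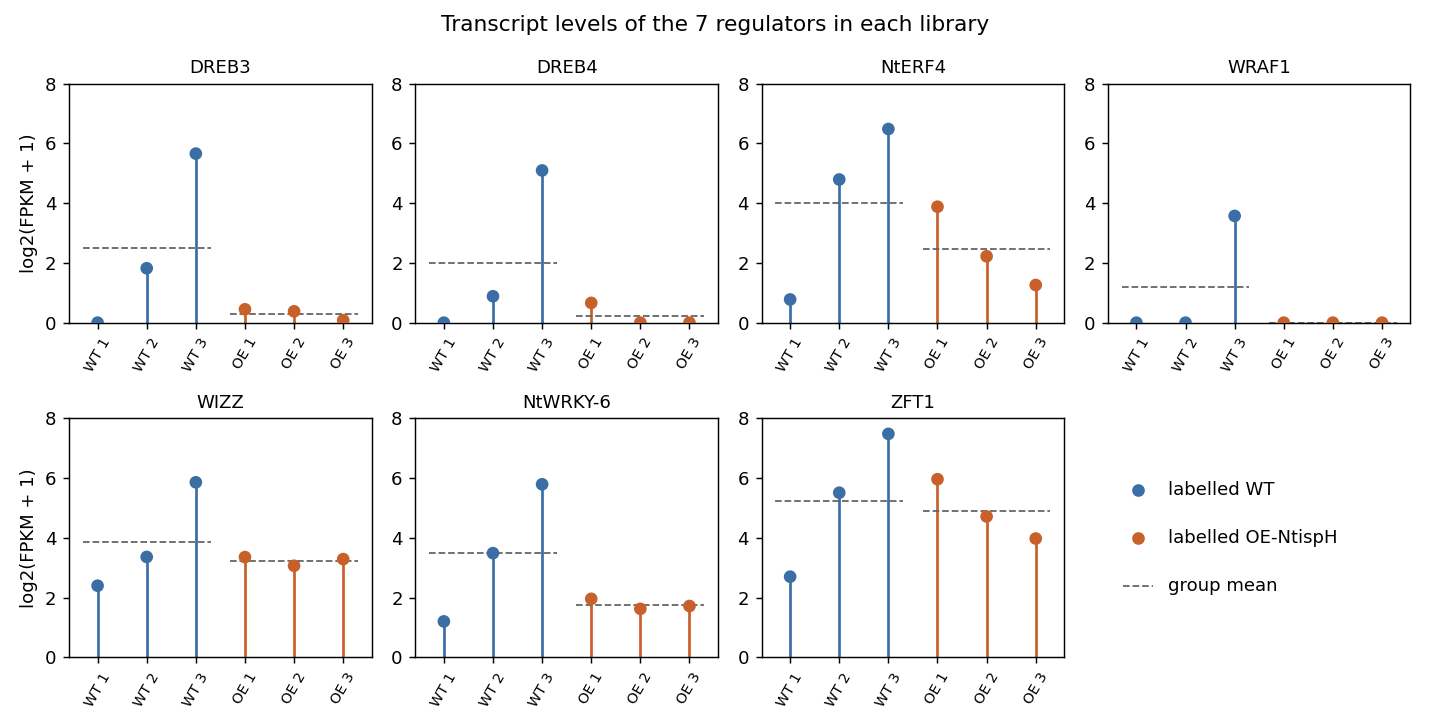
Level of each of the 7 genes as log2(FPKM + 1) in each library, with blue points for libraries labelled WT, orange points for those labelled OE-NtispH, and dashed lines for the mean of each group. WT 3 is the highest library in all 7 panels, and OE 1 stands above the other OE libraries most clearly in NtERF4 and ZFT1.

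The same library stood highest for all 7 genes. WT replicate 3 was the highest of the 6 libraries for 7 of 7, where 13.1% of all tested loci had their highest value there, and it was at least 2 times the next highest library for 7 of 7, against 1.56% of tested loci. Both patterns are what the genes were chosen by, so the shares show how common they were in the table and nothing about the genes. Of the 7 genes, 6 had their lowest WT value in WT replicate 1 and an intermediate one in WT replicate 2, while WRAF1 was listed at 0 in both. The genes were chosen by their levels in the WT libraries, so this pattern was largely fixed by the choice too. It was also found, with equal values in WT replicates 1 and 2 allowed, in 12 of 16 other tested loci named as AP2/ERF or WRKY. Its share over all tested loci was not computed. The replicate numbers carry no order, and the labels give no time or treatment that would rank the 3 WT libraries.

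The genes also differed in how far apart their lowest and highest levels lay. On the log2(FPKM + 1) scale the range over the WT libraries was 5.70 for NtERF4, 5.66 for DREB3, 5.09 for DREB4, 4.78 for ZFT1, 4.59 for NtWRKY-6, 3.57 for WRAF1 and 3.46 for WIZZ. The median range of all tested loci was 0.31. The order depends on the pseudocount for the 3 genes at 0 in WT replicate 1. With 0.1 in place of 1, DREB3 had the widest range, at 8.95, followed by DREB4 (8.38), WRAF1 (6.78) and NtERF4 (6.77). With rescaling to TPM the range was 6.03 for DREB3 and 5.90 for NtERF4. Over the OE-NtispH libraries the range was 2.62 for NtERF4 and 1.99 for ZFT1, and between 0 and 0.66 for the other 5 genes, with a median of 0.37 for all tested loci. For DREB3 and DREB4, at low values there, this range depends on the pseudocount as well: with 0.1 it was 1.55 and 2.77. WRAF1 was listed at 0 in every OE-NtispH library, so its range there says nothing of steadiness. In WT replicate 1, ZFT1 stood above 58.9% of tested loci and WIZZ above 50.9%, NtWRKY-6 above 18.3% and NtERF4 above 7.80%, and the remaining 3 genes were listed at 0. In WT replicate 3, 6 of the 7 stood above 92.9% to 98.9% of tested loci, and WRAF1 above 77.4%.

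Summed over the 7 genes, the level was 11.8, 94.2 and 471.3 FPKM in WT replicates 1, 2 and 3, and 88.3, 38.7 and 27.3 FPKM in OE-NtispH replicates 1, 2 and 3. The make-up of the sum differed between libraries. In WT replicate 1 the AP2/ERF genes gave 6.04% of it and the WRKY genes 47.3%, while in WT replicate 3 the AP2/ERF genes gave 38.6% and the WRKY genes 23.7%. In OE-NtispH replicate 1, whose sum was close to that of WT replicate 2, ZFT1 gave 69.6% and the AP2/ERF genes 16.6%, against 47.4% and 31.9% in WT replicate 2. The pairwise correlation of the 7 genes over the 6 libraries had a median Pearson r of 0.91 (21 pairs, from 0.72 to 0.98), and over the 5 libraries without WT replicate 3 a median of 0.84 (15 pairs without WRAF1, from 0.51 to 0.98). These coefficients share the same few libraries and describe them only. The genes were chosen by their levels in the WT libraries, so high coefficients were largely fixed by the choice and support nothing. Leaving out WT replicate 3 does not change that, since WT replicates 1 and 2 remain.

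**Figure D2:**
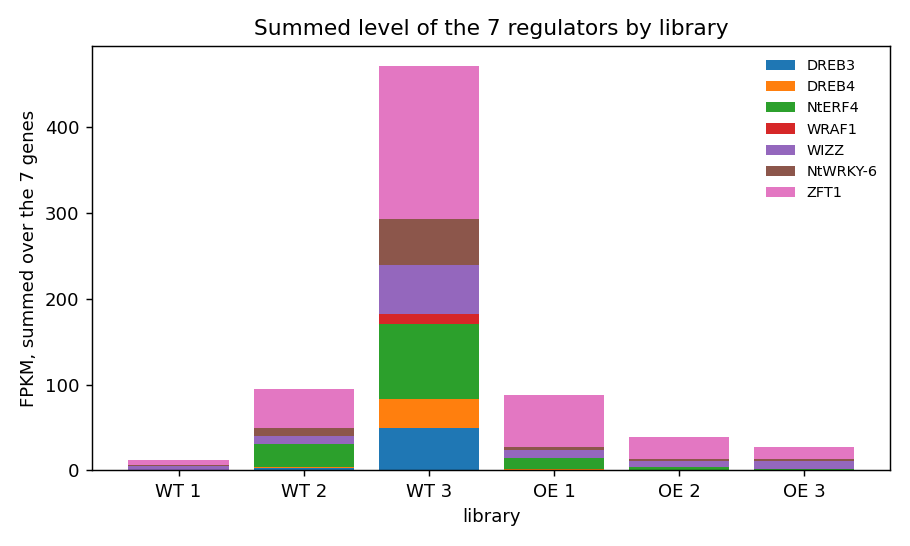
FPKM summed over the 7 genes in each library, each colour being 1 gene. The sum is 471.3 FPKM in WT 3, 94.2 in WT 2 and 88.3 in OE 1, and ZFT1 is the main part of it in OE 1.

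Between the labelled groups, no member passed the test, 0 of 7, where 1.81% of tested loci did (limma on log2(FPKM + 1), Benjamini-Hochberg adjustment over all tested loci at 0.05), and 0 members had an unadjusted p under 0.05, against 26.4% of tested loci. The WT libraries that chose the genes enter this comparison, so the values describe the groups and support nothing. All 7 fitted log2 changes, OE-NtispH minus WT, were below 0, with a median of -1.56 against 0.13 for all tested loci. DREB3 averaged 17.3 ± 27.9 FPKM in WT against 0.241 ± 0.16 in OE-NtispH (SD, n = 3 each), and its fitted difference was -2.19 (standard error 1.51; limma, adjusted p = 0.408). NtERF4 averaged 38.6 ± 45.0 against 6.26 ± 6.57 FPKM (SD, n = 3 each), with a fitted difference of -1.56 (standard error 1.67; limma, adjusted p = 0.593). ZFT1 averaged 76.0 ± 90.3 against 33.8 ± 24.5 FPKM (SD, n = 3 each), with a fitted difference of -0.35 (standard error 1.35; limma, adjusted p = 0.894). The other 4 genes had log2 changes of -1.77 (DREB4), -1.73 (NtWRKY-6), -1.19 (WRAF1) and -0.64 (WIZZ), each with an SD in WT larger than its mean.

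These differences rested on WT replicate 3. Without it the log2 change was -0.61 for DREB3, -0.58 for NtWRKY-6, -0.33 for NtERF4 and -0.22 for DREB4, and above 0 for WIZZ (0.36) and ZFT1 (0.78; limma, adjusted p from 0.501 to 0.922 for the 6 genes), while WRAF1 was then listed at 0 throughout. Without WT replicate 1 it was between -3.44 (DREB3) and -1.37 (WIZZ), and no member passed (limma, lowest adjusted p = 0.109, NtWRKY-6). For 7 of 7 genes no OE-NtispH value lay outside the range of the WT values, which held for 9.91% of tested loci. The genes were chosen by their wide differences among the WT libraries, so this was largely fixed by the choice and supports nothing. WRAF1 met this with every OE-NtispH value at the lower end, at 0. All OE-NtispH values lay below WT replicate 2 for DREB3, DREB4, NtERF4 and NtWRKY-6, and barely so for WIZZ (9.25 against 9.29 FPKM), but not for ZFT1 and WRAF1. The share of all tested loci with this pattern was not computed. WT replicate 2 was among the libraries that chose the genes, so this too supports nothing.

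**Figure D3:**
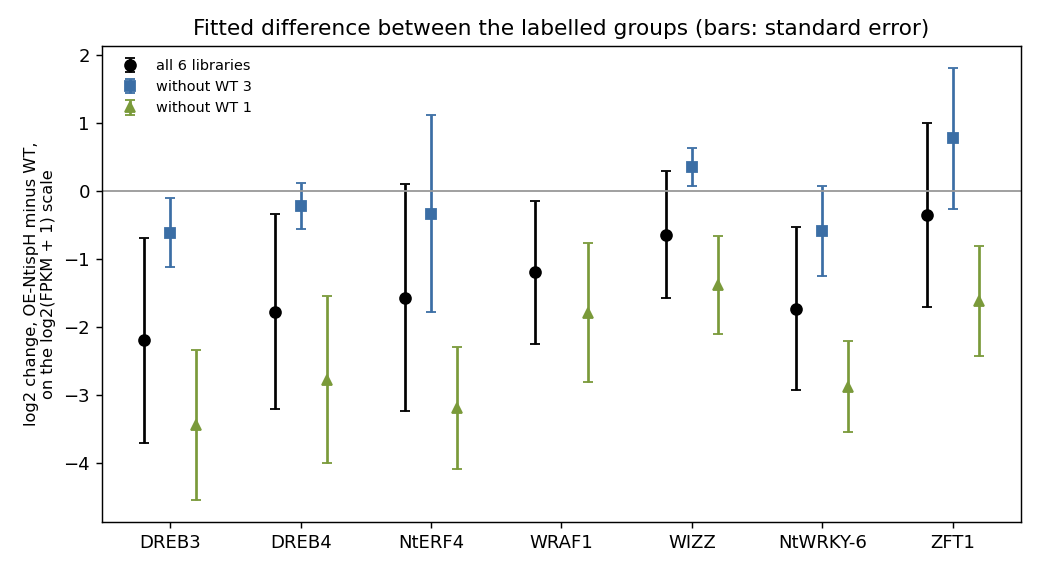
Fitted log2 change, OE-NtispH minus WT, of each gene on the log2(FPKM + 1) scale, with standard errors, from all 6 libraries (black), without WT 3 (blue) and without WT 1 (green). Without WT 3 the values of DREB3, DREB4, NtERF4 and NtWRKY-6 move towards 0, and those of WIZZ and ZFT1 lie above 0, at 0.36 and 0.78; WRAF1 has no blue point because it was then at 0 in every library.

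Other loci named as AP2/ERF or WRKY were looked up by name, 21 in all, of which 16 were tested. WT replicate 3 was the highest library for 10 of these 16, against 13.1% of all tested loci. It was at least 2 times the next for 4, against 1.56% of tested loci. These were WRAF2, NtERF2, WRKY3 (ncbi_107780047) and WRKY12. WRAF2 averaged 0.5 FPKM or more only through WT replicate 3, so its place in both counts was fixed in advance. WRAF2 (ncbi_107811677), named like WRAF1, was listed at 0, 0.060 and 4.77 FPKM in WT replicates 1, 2 and 3, and at 0.066, 0 and 0 FPKM in OE-NtispH replicates 1, 2 and 3. DREB2 (ncbi_107778127), too low to be tested, was at 2.40 FPKM in WT replicate 3 and at or under 0.068 FPKM elsewhere. WRAF2 and DREB2 were thus, like WRAF1, near or at 0 outside WT replicate 3.

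The most abundant of the other AP2/ERF loci showed smaller differences. NtERF1 (ncbi_107825044), an ERF factor, was at 13.6, 36.7 and 76.6 FPKM in WT replicates 1, 2 and 3, and at 40.7, 21.8 and 29.5 FPKM in OE-NtispH replicates 1, 2 and 3. NtERF3b (ncbi_107814796), named like the repressor NtERF3, was at 4.53, 15.8 and 49.3 FPKM in the WT replicates and at 25.3, 10.4 and 6.17 FPKM in the OE-NtispH replicates. In both genes OE-NtispH replicate 1 was the highest of its group, as it was in 6 of the 7 regulators, WRAF1 being at 0. Its lead over the next OE-NtispH library was small or near 0 FPKM in DREB3 (0.364 against 0.301), DREB4 (0.582 against 0) and WIZZ (9.25 against 8.78). The share of all tested loci with this library highest of its group was not computed. NtERF5 (ncbi_107802932) had another pattern, at 24.2, 21.9 and 20.3 FPKM in the WT replicates and 34.8, 28.8 and 31.7 FPKM in the OE-NtispH replicates, a fitted log2 difference of 0.50 (standard error 0.12; limma, adjusted p = 0.0647). Of the 11 tested AP2/ERF loci outside the 7, none passed (limma, lowest adjusted p = 0.0528; 2 of 11 at unadjusted p under 0.05, against 26.4% of tested loci), and their median log2 change was 0.08, against 0.13 for all tested loci.

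Among 5 other WRKY loci, 4 had WT replicate 3 as the highest library, against 13.1% of all tested loci. The fifth, WRKY2, was the only one that passed between the groups, where 1.81% of tested loci did. NtWRKY-8 (ncbi_107766079), the most abundant, was at 29.1, 38.4 and 102.8 FPKM in WT replicates 1, 2 and 3, and at 65.6, 47.7 and 46.3 FPKM in OE-NtispH replicates 1, 2 and 3. WRKY3 was the name of 2 loci: ncbi_107780047 was at 2.62, 7.93 and 44.0 FPKM and ncbi_107794474 at 8.46, 19.9 and 38.5 FPKM in the WT replicates, with 3.98 to 7.82 and 7.67 to 12.4 FPKM in OE-NtispH. WRKY2 (ncbi_107784946) averaged 7.50 ± 0.52 FPKM in WT and rose to 12.6 ± 0.71 in OE-NtispH (SD, n = 3 each), a fitted log2 difference of 0.68 (standard error 0.11; limma, adjusted p = 0.0368). It missed the threshold under 9 of 14 alternatives, among them leaving out any 1 of the WT replicates (limma, adjusted p of 0.0811, 0.172 and 0.124 without WT replicates 1, 2 and 3) or OE-NtispH replicate 1 (0.119). With median-of-ratios scaling its log2 change was 0.53 (limma, adjusted p = 0.0568).

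**Figure D4:**
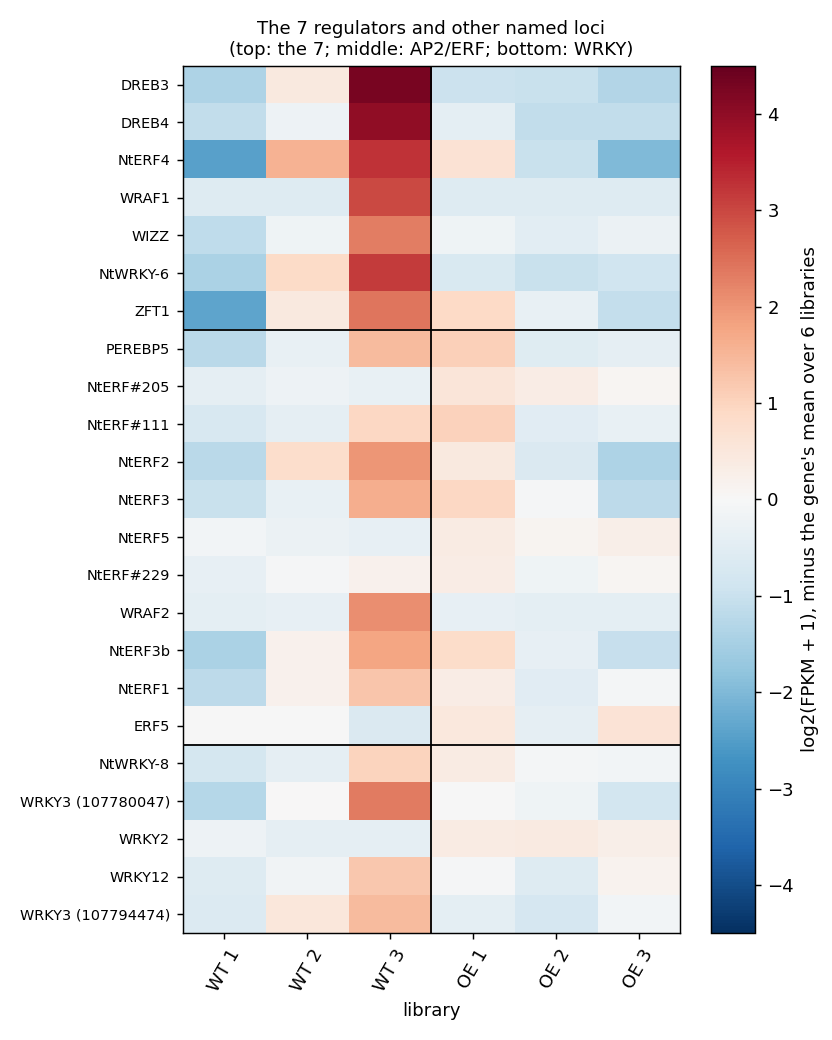
Centred levels, log2(FPKM + 1) minus the gene's mean over the 6 libraries, of the 7 genes (top) and of 16 other tested loci named as AP2/ERF (middle) or WRKY (bottom). Red is above and blue below the gene's own mean. WT 3 is the highest library in all 7 genes and in 10 of the 16 other loci, while WRKY2 and NtERF5 are pale red in the OE columns.

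Of the protein kinases that signal to such factors in wounded or infected tobacco, 9 of 11 loci were tested and none passed between the groups (limma, lowest adjusted p = 0.065; 4 of 9 at unadjusted p under 0.05, against 26.4% of tested loci). WIPK (ncbi_107821857), the wound-induced MAP kinase, was at 14.0, 17.3 and 54.5 FPKM in WT replicates 1, 2 and 3, and at 29.8, 19.1 and 20.9 FPKM in OE-NtispH replicates 1, 2 and 3. Its upstream kinase MEK2 (ncbi_107771019) ranged only from 7.60 to 15.3 FPKM, with the highest value also in WT replicate 3. These were the only 2 of the 9 tested kinase loci with their highest value in that library, against 13.1% of all tested loci. The count is thus near that background. For 0 of the 9 was it at least 2 times the next highest library, against 1.56% of tested loci. The salicylic acid-induced kinase SIPK (ncbi_107783427), which acts beside WIPK, was at 17.0, 12.9 and 12.0 FPKM in the WT replicates and so did not have its highest value in WT replicate 3.

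Genes of basic defence proteins, which ERF factors and wounding are known to induce, were looked up at 6 loci. None of the 6 had its highest value in WT replicate 3, a place that 13.1% of all tested loci had, so a count of 0 is near that background. Of the 6, 3 passed the test, against 1.81% of tested loci, all higher in OE-NtispH (limma, adjusted p = 0.0347 for the chitinase gene CHN14 and 0.0343 for the proteinase inhibitor genes PI-Ia and PI-Ib). No locus of the table passed without WT replicate 1 or without OE-NtispH replicate 1, these 3 included. CHN14 (ncbi_107784434) was at 14.6, 17.3 and 12.7 FPKM in WT replicates 1, 2 and 3, and at 38.4, 29.2 and 27.4 FPKM in OE-NtispH replicates 1, 2 and 3. PI-Ia (ncbi_107787825) was at 258.4, 174.1 and 127.2 FPKM in the WT replicates, lowest in the library where the 7 regulators were highest. Of the 6 loci, 1 had the opposite order, CHN48 (ncbi_107759005), at 42.1, 78.4 and 89.0 FPKM in WT replicates 1, 2 and 3.

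The named genes whose profile over the 6 libraries was most like the mean of the 7 (standardised log2 values, Pearson r, 900 named loci averaging 1 FPKM or more) were ACRE276, AO, WRKY3 (ncbi_107780047), GRAS1, CRK1 and ACRE231, with r from 0.98 to 1.00. With WT replicates 3 and 1, the libraries farthest from the median, left out, r over the remaining 4 was 0.97 for ACRE276, 0.91 for AO, 0.80 for WRKY3, 0.98 for GRAS1, 0.94 for CRK1 and 0.98 for ACRE231. GRAS1 (ncbi_107771234), a GRAS-family protein, was at 8.80, 20.1 and 51.4 FPKM in WT replicates 1, 2 and 3, and at 12.9, 9.02 and 8.80 FPKM in OE-NtispH replicates 1, 2 and 3. ACRE231 (ncbi_107788719), from a set of genes rapidly elicited in Cf-9 tobacco by the fungal peptide Avr9, was listed at 0, 4.81 and 36.1 FPKM in the WT replicates and at 2.76, 0.912 and 0.042 FPKM in the OE-NtispH replicates. An r of at least 0.9 was found in 28 of the 900 named loci (3.11%) and in 700 of 40718 tested loci (1.72%).

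The label of mature leaf was checked on marker genes. The 6 leaf loci looked up (Lhcb4, Lhcb6, GAPA, GAPB and 2 Rca loci) summed to 8546 to 9821 FPKM in the WT libraries and 4967 to 6836 FPKM in the OE-NtispH libraries, with WT replicate 3 at 9354 FPKM between the other 2 WT libraries. Of 4 root loci, PMT1, PMT2 and A622 were listed at 0 in every library and QPT2 was at 16.5 to 37.6 FPKM. Of 2 loci looked up for trichomes, the abienol synthase gene NtABS was at 9.24 to 11.9 FPKM in all libraries. The other, CYP71D20, is an elicitor-inducible gene of capsidiol synthesis and so a poor trichome marker. It was at 3.67, 21.6 and 92.5 FPKM in WT replicates 1, 2 and 3 and moved with the 7 regulators. The sum of these 2 loci, 14.6 to 101.8 FPKM in WT and 15.6 to 26.1 FPKM in OE-NtispH, varied mainly through CYP71D20. A part of trichomes in the result was not tested. Both flower loci, NAG1 and NtMADS4, were at or under 0.054 FPKM. In bulk leaf RNA, more cells with these transcripts and more RNA per cell cannot be told apart.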

How the data were processed

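RNA-seq of 6 mature leaf libraries was analysed, 3 WT and 3 OE-NtispH, grouped and numbered by their titles. The authors deposited FPKM values, already scaled by transcript length and library size. The submitters' processing notes name fastp, Bowtie2, HISAT2, StringTie and RSEM; their versions and roles, the genome build and the annotation were not given in the sources used here. Gene names came from the RefSeq gene table of assembly ASM71507v2, used for names only (1335 loci carry one).

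The log2(FPKM + 1) values of the 40725 loci averaging 0.5 FPKM or more were fitted by group with limma 3.58.1 under R 4.3.3 (trend, robust, two-sided, Benjamini-Hochberg at 0.05). Since nothing says that replicates are separate plants, p-values refer to the spread among these libraries, possibly technical. No read counts were available to the analysis; the commonest ratio of low FPKM values put depth at 1.02 to 1.17 times that of WT replicate 1, with only ratios near 1 searched. Tables and figures used Python 3.11.15, pandas 2.3.3, numpy 2.4.6 and matplotlib 3.10.9.

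The 7 members and all lists were chosen with earlier results of these data known. Families, planned by protein sequence, were taken from gene names, and close gene copies and promoter motifs were not analysed here. Kinase, defence and marker loci were matched by exact name; names without a match were left out. Of each family the text names the most abundant loci, the 4 past 2 times the next library, and WRKY2, DREB2 and NtERF5, chosen after their values were seen.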

Additional observations from a re-analysis of the deposited data

How the results depend on the processing

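Alternatives were a pseudocount of 0.1, no filter, a mean of at least 2 FPKM, 3 scalings, limma without trend and robust, a replicate block and leaving out each library. No member passed under any of them (limma, adjusted p from 0.109 to 0.976), and of 96 refitted member changes 93 kept their sign; WRAF1 had no value without WT replicate 3, where it was at 0, or under the filter at 2 FPKM. The exceptions were ZFT1, from -1.61 to 0.78 over the left-out libraries (above 0 without WT replicate 3 or OE-NtispH replicate 3, at 0.11), and WIZZ, from -1.37 to 0.36 (above 0 without WT replicate 3).

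The 737 loci past the threshold became 1375 under the filter at 2 FPKM, 312 with median-of-ratios scaling, 38 with no filter, 53 without trend and robust and 68 with the replicate block, and 0 to 3103 over the left-out libraries (0 without WT replicate 1 or OE-NtispH replicate 1, with 10208 and 7219 at unadjusted p under 0.05; 1 and 17 without WT replicates 2 and 3; 1355 and 3103 without OE-NtispH replicates 2 and 3); beyond the smaller samples the cause was not tested. The share higher in OE-NtispH was 68.7%, and 39.7% and 39.5% with median-of-ratios and quantile scaling, which moved the median of all loci from 0.13 to 0.01 and 0.02. Same-numbered libraries did not deviate together (r of -0.13, 0.04 and -0.16). The values thus show no pairing by number, though they cannot exclude one. With a pseudocount of 0.1 the WT range of DREB3, DREB4 and WRAF1, listed at 0 in some libraries, widened to 8.95, 8.38 and 6.78. The OE-NtispH range of DREB3 and DREB4 widened too, to 1.55 and 2.77.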

Other observations

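Not every named AP2/ERF gene had transcripts in these leaves. ERF168, ERF179 and ERF189, factors of the gene cluster that regulates nicotine synthesis in roots, were listed at 0 in all 6 libraries, and ERF115 was listed at 0.14 FPKM in WT replicate 3 and at 0 elsewhere. PMT1, PMT2 and A622, genes of nicotine synthesis, were listed at 0 in all 6 libraries as well, while QPT2, a further gene of that pathway, was at 16.5 to 37.6 FPKM.

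PEREBP5 (ncbi_107761838), an AP2/ERF gene, had 2 high libraries, 1 in each group. It was at 34.7 FPKM in WT replicate 3 and 27.0 in OE-NtispH replicate 1, and at 4.74 to 9.73 FPKM in the other 4 libraries. These libraries were picked out after their values were seen, and the difference was not tested.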
